A study of Mus musculus with 20 samples.

Results

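The genes described here are the protein-coding genes of the mouse major histocompatibility complex (MHC) whose symbol starts with H2-, together with *B2m*, *Tap1*, *Tap2*, *Tapbp*, *Psmb8*, *Psmb9*, *Psmb10*, *Cd74*, *Ciita* and *Nlrc5*. They were picked by symbol and not by their values, and 44 of the 54838 genes in the count tables met this rule. Of these, 25 belong to class I, 10 to class II, 6 to antigen processing and 2 are regulators, and *H2-Ke6* carries an H2- symbol without coding for an MHC molecule. The values are reads counted per gene in whole ovaries of 20 female mice aged 77 days. Each of the 4 groups held 5 mice, which were from the unselected line ctrl or from FL1 and were taken either in estrus or in diestrus. FL1 is an outbred line selected over many generations for litter size and litter weight, and ctrl is the outbred line kept without selection, and both descend from the same founder cross. No mouse was treated or genetically modified, the stage was read from vaginal smears, and fat, capsule and oviduct had been taken off the ovaries.

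MHC class I molecules are made by nearly all cells with a nucleus. A heavy chain, coded by the H2-K, H2-D, H2-Q, H2-T and H2-M genes, pairs with beta-2 microglobulin (*B2m*) and shows peptides to cytotoxic T cells. The peptides are cut by the proteasome, pumped into the endoplasmic reticulum by the transporter of *Tap1* and *Tap2*, and loaded with the help of tapasin (*Tapbp*). Class II molecules are made mainly by macrophages, dendritic cells and B cells, which show peptides from engulfed material to helper T cells. In the ovary such cells lie in the stroma and in the corpus luteum, where they take part in the removal of old luteal tissue.

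Expression is given as CPM, which are reads counted on a gene relative to the library size corrected by TMM factors. The kit reads 1 stretch near the 3′ end of a transcript, so that CPM do not grow with transcript length. Libraries held 5991223 to 10352718 counts, and the floor of 3 counts used here is 0.290 to 0.501 CPM. Ovarian markers were present in all groups, as the summed CPM of 6 luteal genes lay between 10750 and 34466 and that of 6 oocyte genes between 121 and 382. Of the 44 genes, 24 passed the filter on low counts in at least 1 comparison. Further 11 genes had counts but were never tested and stayed at or below 2.50 CPM in every library, among them *H2-T24*, *H2-M5*, *H2-Q1*, *H2-Q2*, *H2-Q6*, *H2-Oa*, *H2-Ob* and *H2-DMb2*. The other 9, namely *H2-M1*, the H2-M10 genes, *H2-M11* and *H2-Eb2*, had no count in any library.

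The promoters of the genes on which the results turn are shown because their known control elements differ between class I, class II and processing genes. Sequences are the 200 bases before the transcription start in RefSeq on GRCm38.p6, read 5′ to 3′ along the gene's strand, and 37 of the 44 genes had an entry. Capitals mark letters of 4 motifs searched on both strands, which are GGGGATT from the class I enhancer, a site of the NF-kB type, TGACG from the X2 box, AGCAAC from the X1 box and GATTGG of the Y box. GGGGATT and GATTGG share letters and may overlap. For *H2-K1* the sequence printed is that before the first of 2 listed starts.
H2-K1 (chr17:34000348-34000547, minus strand): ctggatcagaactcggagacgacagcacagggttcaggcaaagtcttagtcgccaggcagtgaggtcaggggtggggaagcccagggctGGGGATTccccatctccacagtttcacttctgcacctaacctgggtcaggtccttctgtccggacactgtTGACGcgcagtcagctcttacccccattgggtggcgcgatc
H2-D1 (chr17:35262894-35263093, plus strand): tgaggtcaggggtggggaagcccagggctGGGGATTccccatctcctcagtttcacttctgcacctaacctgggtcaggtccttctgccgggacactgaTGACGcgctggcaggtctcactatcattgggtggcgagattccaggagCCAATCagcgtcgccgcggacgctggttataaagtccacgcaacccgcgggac
H2-Q10 (chr17:35469889-35470088, plus strand): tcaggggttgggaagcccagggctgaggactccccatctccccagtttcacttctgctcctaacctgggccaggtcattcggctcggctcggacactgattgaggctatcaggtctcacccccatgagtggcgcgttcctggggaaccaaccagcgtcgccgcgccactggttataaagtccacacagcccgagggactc
H2-T22 (chr17:36042743-36042942, minus strand): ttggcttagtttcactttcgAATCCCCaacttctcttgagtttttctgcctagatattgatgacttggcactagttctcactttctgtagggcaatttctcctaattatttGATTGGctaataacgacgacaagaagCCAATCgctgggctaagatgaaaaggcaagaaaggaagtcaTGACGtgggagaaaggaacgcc
B2m (chr2:122147487-122147686, plus strand): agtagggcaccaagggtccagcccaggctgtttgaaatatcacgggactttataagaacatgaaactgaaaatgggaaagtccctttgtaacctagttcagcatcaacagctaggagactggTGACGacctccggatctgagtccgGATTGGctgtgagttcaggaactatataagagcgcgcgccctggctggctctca
H2-Aa (chr17:34287824-34288023, minus strand): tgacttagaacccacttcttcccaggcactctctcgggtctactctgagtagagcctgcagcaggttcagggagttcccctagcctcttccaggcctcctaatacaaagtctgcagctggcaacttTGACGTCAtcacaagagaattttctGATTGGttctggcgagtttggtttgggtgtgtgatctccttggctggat
H2-Eb1 (chr17:34305667-34305866, plus strand): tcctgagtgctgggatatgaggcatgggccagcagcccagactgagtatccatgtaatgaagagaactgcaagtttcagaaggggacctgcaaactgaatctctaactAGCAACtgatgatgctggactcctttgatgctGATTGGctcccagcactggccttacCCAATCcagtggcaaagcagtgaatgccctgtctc
Psmb9 (chr17:34187331-34187530, minus strand): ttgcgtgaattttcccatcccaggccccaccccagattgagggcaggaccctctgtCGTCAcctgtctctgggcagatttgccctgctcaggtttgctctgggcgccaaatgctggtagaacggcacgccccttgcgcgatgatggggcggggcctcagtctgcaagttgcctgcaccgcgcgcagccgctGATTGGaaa

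Over the 250 bases before the start, GGGGATT was found in 10 of the 37 genes, 9 of them of class I, and in 2.76% of all 32851 promoters. *H2-K1*, *H2-D1* and *H2-T22* held it, and *H2-Q10* held none of the 4 motifs. GATTGG was present in 28 of the 37 promoters of these genes, including all 8 of class II, against 14.6% of all promoters. AGCAAC was found in 4 genes, all of class II, against 12.2% of all promoters. TGACG stood in 15 of the 37 and in 17.8% of all, and the 2 matches in *H2-Aa* overlap. The matches counted for GATTGG in *H2-K1* and for GGGGATT in *H2-Aa* lie outside their printed 200 bases. A match describes the letters and is not a measured binding site.

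The first question was which MHC genes were expressed differently in FL1 and ctrl in the same stage. *H2-D1* was stronger expressed in FL1 in both stages and *H2-Q10* was weaker expressed in both. In diestrus, *H2-T22* and *Tapbp* were weaker and *H2-M2* was stronger expressed in FL1. No class II gene passed the test between the lines in either stage in edgeR, while *H2-Ab1* in diestrus depended on the method. In edgeR's quasi-likelihood test with an adjusted p of at most 0.05, 2 of the 44 genes differed in estrus, where 2.33% of all 13374 genes tested did, and 5 of the 44 differed in diestrus, where 4.11% of all 13259 did. The tested members numbered 20 and 23, and *H2-Q10* and *H2-M2* could pass the filter only through the line in which they were high. In whole ovaries, fewer cells of a type and less RNA per cell cannot be told apart. The groups did not overlap in 2 genes in estrus (4.89% of all genes tested) and in 4 genes in diestrus (5.45%).

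*H2-D1* (chromosome 17, 35262730 to 35267499) codes for a classical class I heavy chain. In estrus, ctrl mice 1 to 5 had 68.2, 148, 103, 41.8 and 69.4 CPM, and FL1 mice had 259, 270, 278, 337 and 332 CPM. In diestrus, ctrl mice had 109, 200, 203, 60.7 and 39.8 CPM and FL1 mice had 284, 328, 323, 285 and 339 CPM. Each FL1 library was above each ctrl library of its stage. Expression was 3.44-fold higher in FL1 in estrus (log2FC 1.78, SE 0.25, adjusted p = 0.00156, edgeR) and 2.54-fold higher in diestrus (log2FC 1.35, SE 0.34, adjusted p = 0.0391). In diestrus the adjusted p was 0.0618 to 0.0834 when any of the FL1 libraries or ctrl replicate 1 or 4 was left out, with the log2FC between 1.12 and 1.60 in all such fits.

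*H2-K1* (chromosome 17, 33996017 to 34000347), the other classical class I gene counted here, did not pass the main test, which depended on the method. It reached 207, 228, 208, 220 and 366 CPM in ctrl and 329, 317, 304, 362 and 336 CPM in FL1 in estrus. In diestrus, ctrl mice spread from 96.0 to 384 CPM and FL1 mice from 329 to 396 CPM. In estrus 4 of the 5 ctrl libraries lay below all FL1 libraries, and ctrl replicate 5 lay above them. The log2FC was 0.42 (SE 0.15, adjusted p = 0.178, edgeR) in estrus and 0.65 (SE 0.26, adjusted p = 0.205) in diestrus. Without ctrl replicate 5 the estrus log2FC was 0.61 with an adjusted p of 0.00105 (edgeR). Without ctrl replicate 2 the diestrus log2FC was 0.92 with an adjusted p of 0.0490. In each stage this was the only 1 of 10 fits without 1 library that passed. The adjusted p of these fits reached 0.311 in estrus and 0.333 in diestrus. With all libraries kept, *H2-K1* passed in 2 of 8 alternatives in estrus and in 1 of 8 in diestrus. The adjusted p over the 8 alternatives, which include the sum of class I genes, was 0.00575 to 0.356 in estrus and 0.0442 to 0.321 in diestrus.

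Set against *H2-K1* in the same library, *H2-D1* had 0.190 to 0.650 of its CPM in ctrl and 0.787 to 0.989 in FL1 in estrus. In diestrus this ratio was 0.266 to 0.722 in ctrl and 0.815 to 0.951 in FL1. It did not overlap between the lines in either stage, and it varied more among ctrl mice. This ratio was formed after the values had been seen and was not tested.

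**Figure D1:**
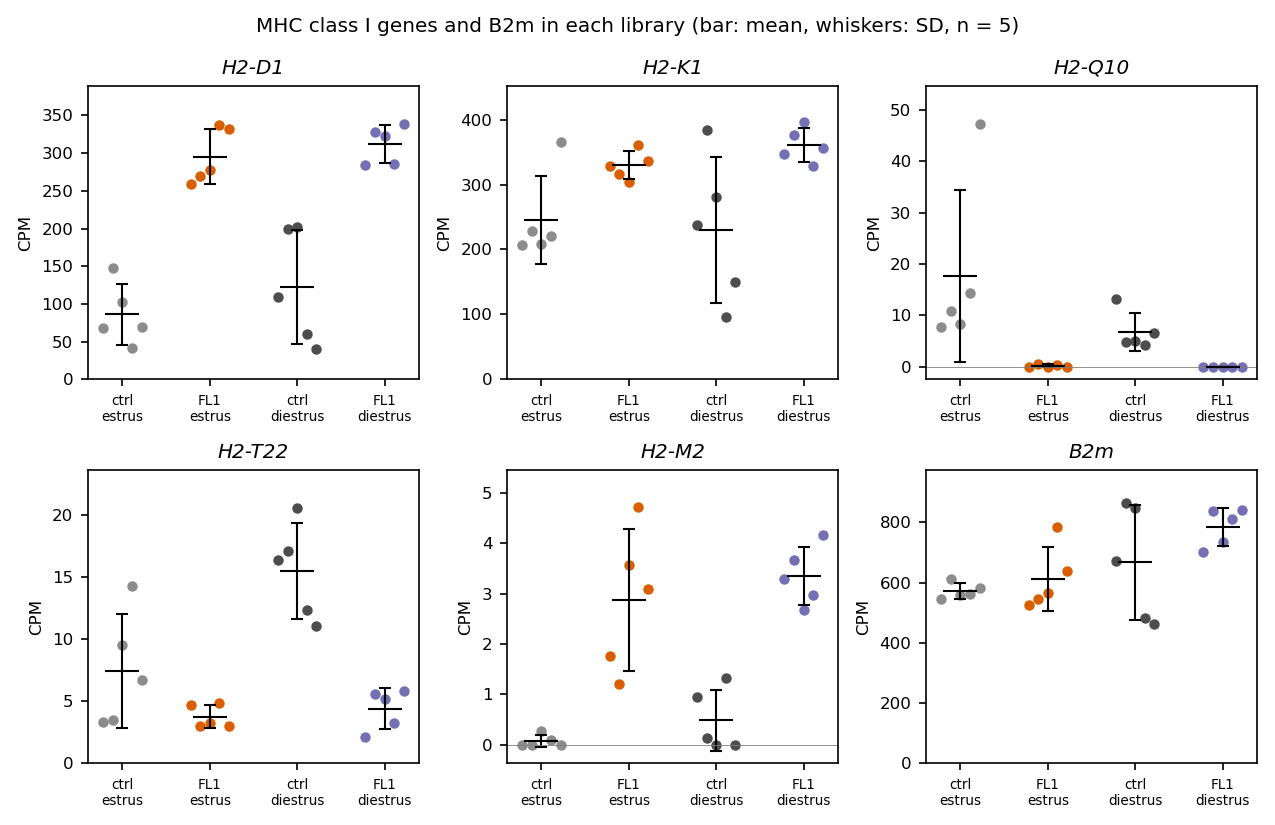
CPM of *H2-D1*, *H2-K1*, *H2-Q10*, *H2-T22*, *H2-M2* and *B2m* in each of the 20 libraries, by line and stage, with points for mice, bars for the mean and whiskers for the SD (n = 5). FL1 mice lie above 250 CPM for *H2-D1* and at or near 0 for *H2-Q10*, and *H2-T22* reaches 20.6 CPM only in ctrl in diestrus.

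*H2-Q10* (chromosome 17, 35470089 to 35474563) codes for a class I molecule without a membrane anchor, known mainly as a secreted product of the liver. In estrus, ctrl mice had 7.77, 10.8, 8.22, 14.3 and 47.3 CPM. FL1 mice had 0, 4, 0, 2 and 0 counts. In diestrus, ctrl mice had 13.2, 4.79, 4.96, 4.28 and 6.61 CPM and all 5 FL1 mice had 0 counts. *H2-Q10* was thus counted in every ctrl mouse, and in FL1 only 6 reads were counted over 10 mice. The fitted log2FC was -6.67 (SE 0.81, adjusted p = 0.000394, edgeR) in estrus. Its size rests on FL1 counts near 0, with a mean of 0.179 CPM below the floor of 3 counts. It is not to be set against the size in diestrus. In diestrus FL1 was at least 15.3-fold lower, with FL1 set to 3 counts per library (adjusted p = 0.000371, edgeR). Within ctrl, *H2-Q10* had a log2FC of 1.34 (SE 0.50, adjusted p = 0.198, edgeR) in estrus against diestrus.

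*H2-T22* (chromosome 17, 36037128 to 36042747) codes for a non-classical class I molecule that gamma delta T cells recognise. In diestrus, ctrl mice had 16.4, 17.1, 20.6, 12.3 and 11.1 CPM, and FL1 mice had 2.15, 5.62, 5.19, 3.26 and 5.83 CPM. In estrus, ctrl mice had 3.35, 3.48, 9.52, 14.3 and 6.68 CPM and FL1 mice had 4.70, 3.00, 3.25, 4.87 and 2.99 CPM. The lines were apart in diestrus and overlapped in estrus, where 3 ctrl mice lay above all FL1 mice. Expression was 3.52-fold lower in FL1 in diestrus (log2FC -1.82, SE 0.27, adjusted p = 0.00156, edgeR). In estrus the log2FC was -1.01 (SE 0.39, adjusted p = 0.212), and the interaction of line and stage did not pass its test (adjusted p = 0.546). *H2-T10* is a gene outside the rule whose transcripts match the 3′ end of *H2-T22*. It had 0.189 to 1.64 CPM in ctrl and 1.83 to 3.27 CPM in FL1 in diestrus. With both genes added up, a step chosen after seeing the data, the log2FC in diestrus was -1.24 (adjusted p = 0.00672).

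*H2-M2* (chromosome 17, 37480851 to 37483552) is a class I gene at the end of the region away from *H2-K1*. In diestrus, ctrl mice had 0.943, 0.137, 0, 1.32 and 0 CPM and FL1 mice had 3.29, 3.66, 2.68, 2.97 and 4.16 CPM. In estrus, ctrl mice had 0, 0, 2, 1 and 0 counts and FL1 mice had 12, 8, 34, 32 and 29 counts. FL1 lay above ctrl without overlap in both stages, at a low level. The log2FC in diestrus was 2.71 (SE 0.63, adjusted p = 0.0248, edgeR), and the adjusted p was 0.0516 to 0.0647 without FL1 replicate 1, 2, 4 or 5 or ctrl replicate 2. In estrus the gene missed the filter on low counts, and the pooled counts of 115 in FL1 and 3 in ctrl give a ratio of 36.7 with an exact 95% interval of 12.2 to 181, which covers counting error only. Without the filter the estrus log2FC was 4.93 (SE 0.78, adjusted p = 0.000177).

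The reads were counted against 1 reference genome. The last 300 nt of *H2-D1* and *H2-K1* match transcripts of each other, of *H2-Q10*, *H2-T22* and 6 further class I genes. A match means at least 50 shared words of 31 nt anywhere in the other transcript. The last 300 nt of *H2-Q10* matched no other gene in this way, and those of *H2-T22* only *H2-T10*. The MHC alleles of these outbred mice were not analysed here. The amount of RNA and the share of its reads that map uniquely therefore cannot be told apart. With these 10 genes added up to 1 row, FL1 was higher in estrus (log2FC 0.80, adjusted p = 0.00869, edgeR) and did not pass the test in diestrus (log2FC 0.86, adjusted p = 0.0845).

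Summed over the 24 class I H2- genes, ctrl mice had 304 to 505 CPM and FL1 mice 612 to 742 CPM in estrus. In diestrus the sums were 201 to 632 CPM in ctrl and 646 to 760 CPM in FL1. The sums did not overlap between the lines, and *H2-K1* and *H2-D1* made up most of them in every library. *H2-Q10* took 2.30% to 9.37% of the class I counts in ctrl in estrus and 0.758% to 3.36% in diestrus.

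**Figure D2:**
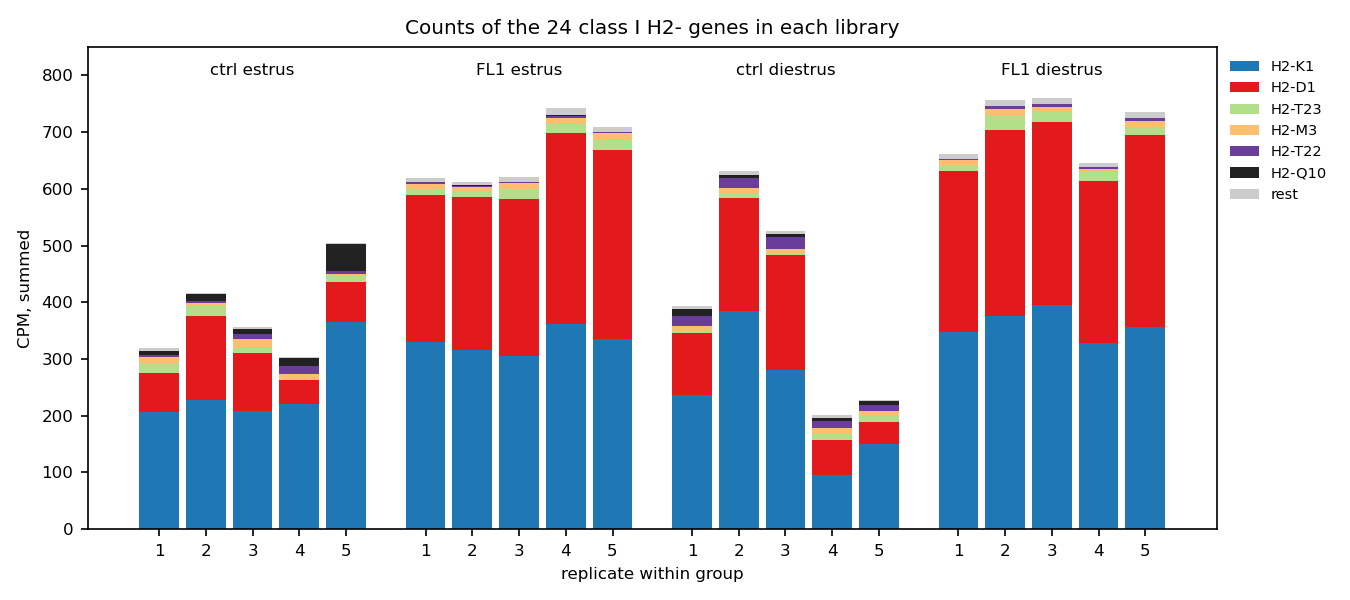
Stacked CPM of the 24 class I H2- genes in each library, with replicates 1 to 5 of each group on the horizontal axis. The columns of FL1 stand between 612 and 760 CPM with near equal parts of *H2-K1* and *H2-D1*, whereas those of ctrl range from 201 to 632 CPM with a smaller part of *H2-D1*.

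Among the other class I genes, *H2-T23*, which codes for the Qa-1 molecule that carries leader peptides of class I chains to receptors of natural killer cells, had 1.89 to 11.3 CPM in ctrl and 9.30 to 25.8 CPM in FL1 in diestrus. Its log2FC was 1.24 (SE 0.40, adjusted p = 0.112, edgeR). *H2-T23* passed there in 2 of 8 alternatives, with adjusted p of 0.0126 to 0.159 over the 8. *H2-M3*, which presents peptides that begin with formyl methionine, had 1.93 to 16.04 CPM over all libraries and a log2FC of 0.02 in estrus and -0.15 in diestrus, with adjusted p of 0.985 and 0.771 (edgeR). *H2-Q4* and *H2-Q7* stayed below 4 CPM and did not pass the test in diestrus, the only line comparison in which they were tested. *B2m* (chromosome 2, 122147686 to 122153083), the chain that all these heavy chains share, had log2FC of 0.10 and 0.23 between the lines, with adjusted p of 0.753 and 0.50 (edgeR).

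The spread of *H2-D1* was larger among ctrl than among FL1 mice. The highest *H2-D1* library had 3.54 times the CPM of the lowest in ctrl and 1.30 times in FL1 in estrus, and 5.09 and 1.19 times in diestrus. The coefficient of variation was larger in ctrl for 8 of the 10 class I genes tested over the 20 libraries in estrus. In diestrus it was larger in ctrl for 7, while *H2-Q10* had none in FL1, where its counts were all 0. The same direction held for 64.5% of all 14154 genes in estrus and for 58.5% in diestrus. It held for 6 and 4 of the 6 processing genes and for 4 and 3 of 6 class II genes, so that it was not particular to class I. These are descriptions without a test.

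Genes of the same stretch of chromosome 17, from *Tapbp* to *H2-M2* (33915899 to 37483552), that are not listed above were tested as well. Of 81 such genes tested in estrus, 2 (2.47%, against 2.33% of all genes tested) were called, both lower in FL1. Of 79 tested in diestrus, 6 (7.59%, against 4.11% of all) were called, 4 higher and 2 lower.

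**Figure D3:**
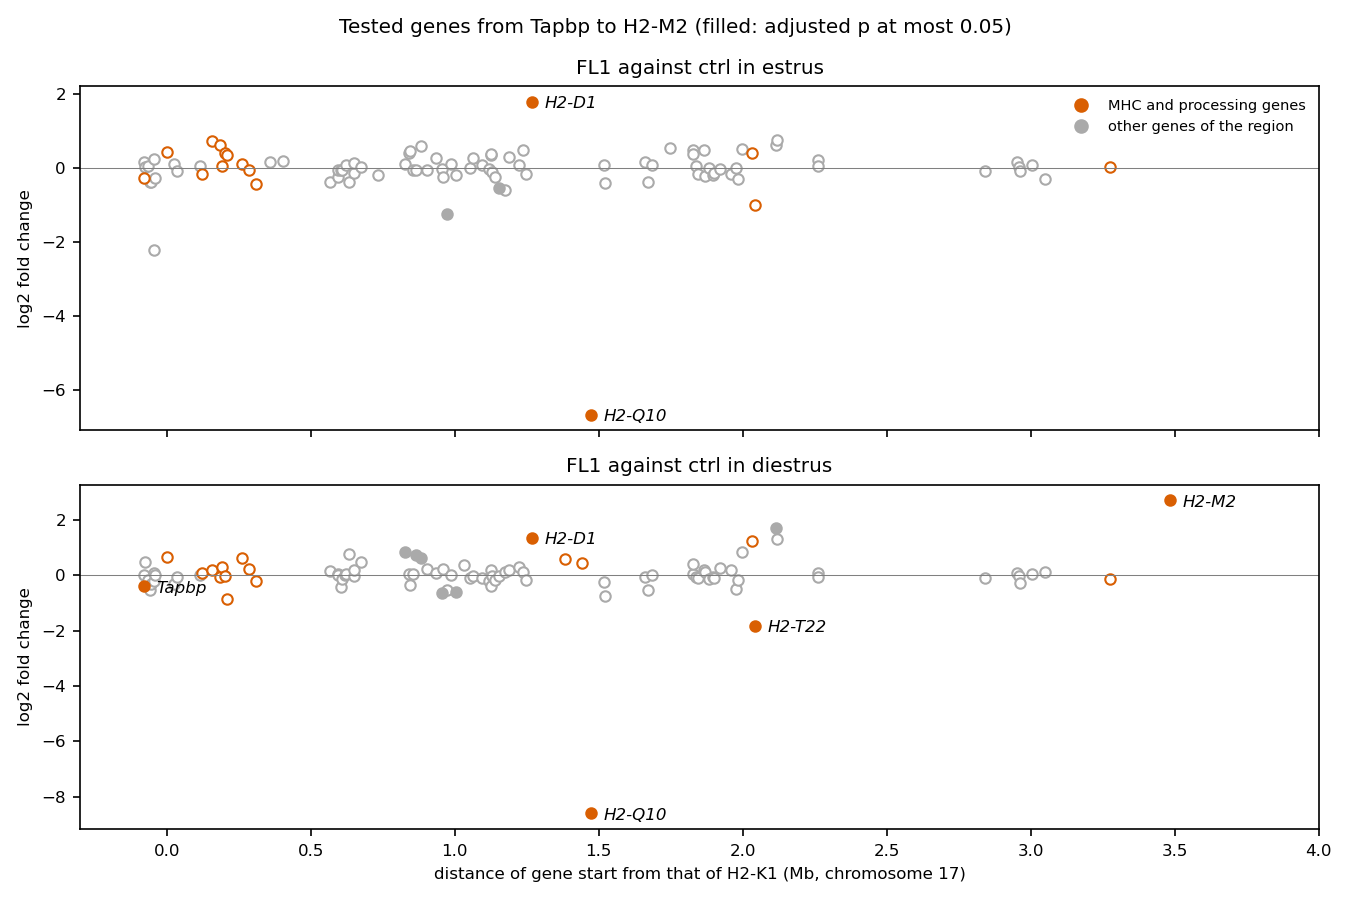
Log2FC of FL1 against ctrl in estrus and diestrus for tested genes of the MHC stretch of chromosome 17, plotted against the distance of the gene start from that of *H2-K1* in Mb. *H2-Q10* lies farthest below 0 and *H2-D1* above 0 in both stages, and in diestrus *H2-M2* (2.71) and *BC023719* (1.70) lie above *H2-D1* (1.35).

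Of the class I loading genes, tapasin (*Tapbp*, chromosome 17, 33915899 to 33929292) was weaker expressed in FL1 in diestrus. Ctrl mice had 180, 230, 261.3, 232 and 215 CPM and FL1 mice had 153, 177, 182, 158 and 180 CPM in diestrus. In estrus, ctrl mice had 225, 183, 175, 161 and 243 CPM and FL1 mice had 137, 156, 192, 177 and 154 CPM. The lines overlapped in both stages, in diestrus by ctrl replicate 1 alone. Expression was 1.32-fold lower in FL1 in diestrus (log2FC -0.40, SE 0.10, adjusted p = 0.0370, edgeR), which did not hold without ctrl replicate 2, 3 or 4 or any of the FL1 libraries (adjusted p 0.0559 to 0.0992). In estrus the log2FC was -0.28 (SE 0.13, adjusted p = 0.324).

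The second question was whether these genes changed between the stages within a line. In FL1, *B2m*, *Cd74* and the class II chain genes *H2-Aa*, *H2-Ab1* and *H2-Eb1* were weaker expressed in estrus than in diestrus, and the immunoproteasome genes *Psmb8*, *Psmb9* and *Psmb10* and the transporter gene *Tap2* were stronger expressed in estrus. These were 9 of the 44 genes, of which 22 were tested, where 15.9% of all 13350 genes passed. Lower in estrus were 5 of the 44, against 8.49% of all genes tested, and higher were 4, against 7.42%. In ctrl, 0 of the 44 genes passed, where 2.85% of all 13334 did (edgeR), with 5 of 20 tested members at an unadjusted p under 0.05. In ctrl DESeq2 called 1, *Psmb10*, and limma-voom called 0. The groups did not overlap in 3 of these genes in FL1 (12.2% of all genes tested) and in 1 in ctrl (4.52%).

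By class, 4 of the 6 tested class II genes fell in estrus in FL1 and none rose, with a median log2FC of -0.56 over the 6 against 0.01 over all genes tested. In ctrl the median over the same 6 was -0.42 against -0.01. Of the 6 processing genes, 4 rose in FL1 and none fell, with a median of 0.49, and the median in ctrl was 0.01. Of the 9 class I genes tested in FL1, *B2m* fell and the others did not pass.

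*H2-Aa* (chromosome 17, 34282744 to 34287823) codes for the alpha chain of the I-A molecule. In FL1 it had 52.3, 66.0, 59.5, 48.5 and 89.0 CPM in estrus and 137, 144, 102, 84.5 and 66.4 CPM in diestrus. In ctrl it had 44.7, 53.3, 68.2, 88.0 and 72.6 CPM in estrus and 93.6, 93.2, 75.8, 81.1 and 108 CPM in diestrus. In both lines the stages overlapped, in FL1 by estrus replicate 5, which lay above diestrus replicates 4 and 5, and the other 4 estrus libraries lay below all diestrus libraries. The log2FC of estrus against diestrus was -0.76 (SE 0.20, adjusted p = 0.0144, edgeR) in FL1 and -0.47 (SE 0.17, adjusted p = 0.173) in ctrl.

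*H2-Ab1* (chromosome 17, 34257689 to 34269419) codes for the beta chain of I-A. In FL1 it had 32.6, 31.8, 33.2, 38.8 and 60.4 CPM in estrus and 78, 78.8, 49.6, 54.6 and 43.6 CPM in diestrus. Ctrl mice had 21.2, 22.7, 41.9, 50.9 and 46.1 CPM in estrus and 39.7, 50.8, 36.3, 28.3 and 40.3 CPM in diestrus. In FL1 only estrus replicate 5 reached the range of diestrus, whereas in ctrl the estrus range enclosed the diestrus range. The log2FC was -0.63 (SE 0.19, adjusted p = 0.0358, edgeR) in FL1 and -0.10 (SE 0.24, adjusted p = 0.902) in ctrl. The call in FL1 was lost without estrus replicate 1, 2, 3 or 4 or diestrus replicate 1 or 2 (adjusted p 0.0702 to 0.0927).

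*H2-Eb1* (chromosome 17, 34305867 to 34316674) codes for the beta chain of I-E. In FL1 it had 28.2, 32.8, 67.7, 28.9 and 42.5 CPM in estrus and 63.7, 64.3, 54.8, 84.6 and 85.8 CPM in diestrus. In ctrl it had 57.1, 59.6, 31.04, 81.6 and 42.2 CPM in estrus and 83.2, 42.5, 70.6, 78.3 and 133 CPM in diestrus. In FL1 4 of 5 estrus libraries lay below all diestrus libraries, and in ctrl the stages overlapped widely. The log2FC was -0.81 (SE 0.21, adjusted p = 0.0132, edgeR) in FL1 and -0.59 (SE 0.28, adjusted p = 0.346) in ctrl.

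*Cd74* codes for the invariant chain, which keeps the groove of class II molecules closed on their way to the endosome. In FL1 it had 44.9, 41.2, 40.9, 39.4 and 50.2 CPM in estrus and 66.1, 81.9, 45.2, 58.2 and 51.1 CPM in diestrus. The ctrl mice showed 39.6, 31.3, 37.9, 53.9 and 44.1 CPM in estrus and 57.9, 50.9, 53.3, 44.4 and 67.8 CPM in diestrus. Both lines had lower means in estrus with some overlap. The log2FC was -0.48 (SE 0.14, adjusted p = 0.0254, edgeR) in FL1 and -0.41 (SE 0.15, adjusted p = 0.198) in ctrl. The call in FL1 was lost without diestrus replicate 1 or 2 or estrus replicate 2 or 4 (adjusted p 0.0568 to 0.0670).

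The genes that exchange class II peptides were low. *H2-DMa* and *H2-DMb1* did not pass any test, and *H2-DMb2*, *H2-Oa* and *H2-Ob* were never tested. *H2-DMa*, a chain of the H2-M editor that loads class II peptides, ranged from 3.9 to 9.68 CPM over all libraries and *H2-DMb1*, its partner chain, from 2.32 to 9.0 CPM. *H2-DMb2*, whose transcripts match the 3′ end of *H2-DMb1*, stayed at or below 1.98 CPM. *H2-Oa* and *H2-Ob*, the chains of the H2-O inhibitor of that editor, stayed at or below 1.57 CPM. Between the lines, *H2-Ab1* came closest to the threshold among class II genes, with a log2FC of 0.64 (SE 0.18, adjusted p = 0.0662, edgeR) in diestrus. It passed there in 3 of 8 alternatives, among them DESeq2 (adjusted p = 0.0178) and edgeR without a filter on low counts (adjusted p = 0.00812), and the adjusted p over the 8 ranged from 0.00812 to 0.160. It also passed in edgeR without FL1 replicate 5 (adjusted p = 0.0397) or ctrl replicate 2 (adjusted p = 0.0432).

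**Figure D4:**
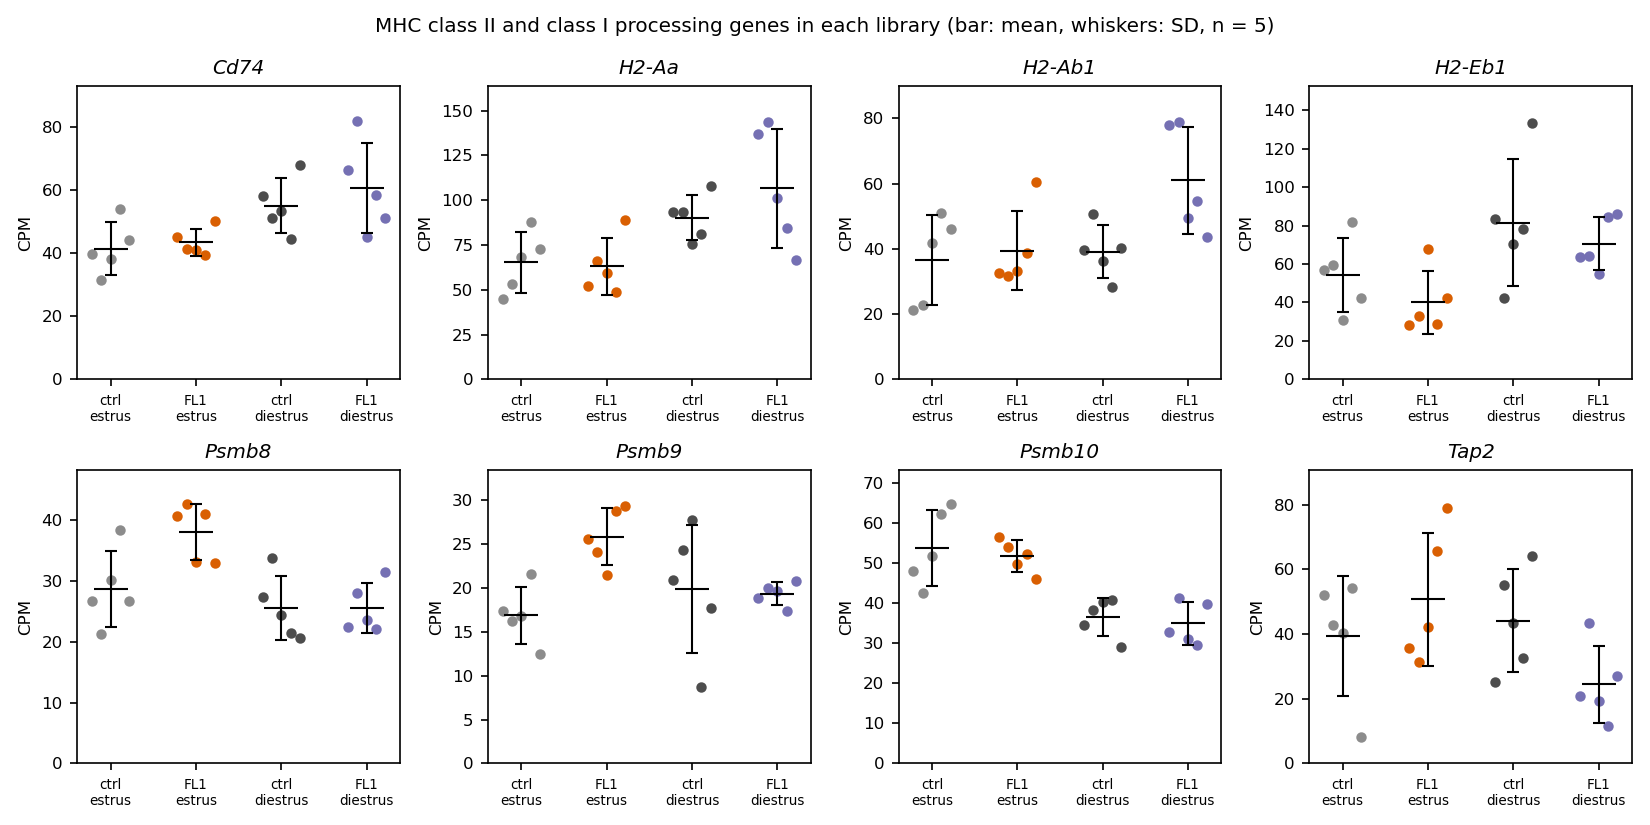
CPM of *Cd74*, *H2-Aa*, *H2-Ab1*, *H2-Eb1*, *Psmb8*, *Psmb9*, *Psmb10* and *Tap2* in each library, by line and stage, with bars for the mean and whiskers for the SD (n = 5). In FL1 the means of the class II genes and *Cd74* are lower in estrus than in diestrus, for example 63.1 against 107 CPM for *H2-Aa*, and those of the processing genes are higher, for example 51.7 against 35.0 CPM for *Psmb10*.

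Markers of the cells that make class II were measured beside these genes. In estrus against diestrus in FL1, 0 of 6 leukocyte and 0 of 10 macrophage markers passed (edgeR). Of those tested, 0 of 2 dendritic cell and 0 of 1 B cell markers passed. Of all genes tested there, 15.9% passed, 8.49% being lower and 7.42% higher in estrus. The summed CPM of the leukocyte list was 76.2 to 127 in estrus and 86.1 to 124 in diestrus in FL1, that of the macrophage list 356 to 589 and 274.2 to 589, and that of the dendritic cell list 24.7 to 31.6 and 26.3 to 35.2. The B cell list summed to 3.63 to 12.9 CPM in estrus and 7.36 to 11.6 CPM in diestrus. Of other markers, 5 of 6 endothelial, 6 of 6 luteal and 3 of 6 tested granulosa genes were lower in estrus in FL1. Cell number and RNA per cell cannot be told apart in whole ovaries. Of 6 theca and stroma markers, *Col1a1*, *Dcn* and *Pdgfra* rose in estrus in FL1 (log2FC 1.00, 0.55 and 0.83) and *Cyp17a1* fell (log2FC -3.83). The endothelial list summed to 207 to 276 CPM in estrus and 326 to 424 CPM in diestrus, and the luteal list to 10750 to 20066 and 27238 to 34466 CPM. The granulosa list summed to 2064 to 3262 and 2235 to 3884 CPM, and the theca and stroma list to 1686 to 2309 and 1322 to 1718 CPM. Their part in the fall of the class II genes and in the rise of the processing genes was not tested.

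Between the lines in diestrus, 2 of 6 leukocyte markers (*Laptm5* and *Lcp1*) and 2 of 10 macrophage markers (*Lyz2* and *Cd68*) were higher in FL1, where 4.11% of all genes tested were called. In estrus *Lyz2* alone of these was higher, where 2.33% of all genes tested were called. The median log2FC of the 10 macrophage markers was below 0 in both stages, at -0.34 in estrus and -0.24 in diestrus against -0.01 over all genes in each, and *C1qa* had -0.51 (SE 0.19) and -0.02 (SE 0.16) without passing. The median of the 6 leukocyte markers was 0.27 in estrus and 0.48 in diestrus. The macrophage list summed to 208 to 374 CPM in ctrl and 274.2 to 589 CPM in FL1 in diestrus, and to 295 to 458 and 356 to 589 CPM in estrus, with *Lyz2* at a mean of 93.8 CPM in ctrl and 233 CPM in FL1 in diestrus. Their part in the class I differences was not tested. None of the markers on these lists was at 0 in all libraries.

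*Psmb8*, *Psmb9* and *Psmb10* code for the catalytic subunits that turn the proteasome into the immunoproteasome. *Psmb10* (chromosome 8, 105935735 to 105938444) in FL1 had 56.5, 54.0, 49.8, 52.2 and 46.2 CPM in estrus and 32.8, 41.4, 31.2, 29.6 and 39.8 CPM in diestrus. In ctrl it had 48.0, 42.5, 51.8, 62.3 and 64.9 CPM in estrus and 34.5, 38.3, 40.2, 40.8 and 29.2 CPM in diestrus. The stages did not overlap in either line. Expression was 1.48-fold higher in estrus in FL1 (log2FC 0.56, SE 0.11, adjusted p = 0.00267, edgeR). In ctrl the log2FC was also 0.56 (SE 0.14), with an adjusted p of 0.0548, and it passed without estrus replicate 2 (adjusted p = 0.0443).

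*Psmb8* (chromosome 17, 34197721 to 34201454) in FL1 had 40.7, 42.7, 33.2, 41.0 and 32.9 CPM in estrus and 22.5, 28.1, 23.6, 22.1 and 31.5 CPM in diestrus. Mice of ctrl had 26.8, 21.3, 30.1, 38.4 and 26.7 CPM in estrus and 27.4, 33.8, 24.5, 21.5 and 20.6 CPM in diestrus. The stages were apart in FL1 and overlapped in ctrl. The log2FC was 0.57 (SE 0.13, adjusted p = 0.00609, edgeR) in FL1 and 0.16 (SE 0.18, adjusted p = 0.747) in ctrl.

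*Psmb9* (chromosome 17, 34181987 to 34187764) overlaps *Tap1* on the opposite strand at the 5′ ends of both, while the kit reads near 3′ ends. The strand setting of the counting is not given. In FL1 *Psmb9* had 25.5, 24.1, 21.5, 28.8 and 29.4 CPM in estrus and 18.9, 20, 19.7, 17.4 and 20.8 CPM in diestrus. In ctrl there were 17.4, 16.2, 16.8, 21.6 and 12.5 CPM in estrus and 20.9, 24.4, 27.8, 8.71 and 17.7 CPM in diestrus. FL1 mice in estrus all lay above FL1 mice in diestrus. The log2FC was 0.42 (SE 0.12, adjusted p = 0.0313, edgeR) in FL1 and -0.24 (SE 0.26, adjusted p = 0.747) in ctrl. The call in FL1 was lost without diestrus replicate 1, 3 or 4 or estrus replicate 4 or 5 (adjusted p 0.0571 to 0.0800). Between the lines in estrus *Psmb9* had a log2FC of 0.61 (SE 0.16, adjusted p = 0.0678), and FL1 and ctrl overlapped by ctrl replicate 4.

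*Tap2* (chromosome 17, 34203527 to 34216321) codes for a chain of the peptide transporter. In FL1 it had 35.5, 31.2, 42.1, 65.7 and 78.9 CPM in estrus and 20.8, 43.3, 19.4, 11.6 and 27.0 CPM in diestrus. The CPM in ctrl were 52.1, 42.9, 40.2, 54.2 and 8.09 CPM in estrus and 25.1, 55.1, 43.2, 32.6 and 64.1 CPM in diestrus. The stages overlapped in both lines, in FL1 by diestrus replicate 2. The log2FC was 1.05 (SE 0.29, adjusted p = 0.0225, edgeR) in FL1 and -0.15 (SE 0.38, adjusted p = 0.903) in ctrl. The call in FL1 was lost without estrus replicate 4 or 5 or diestrus replicate 1, 3 or 4 (adjusted p 0.0507 to 0.0712). *Tap1*, the partner chain (chromosome 17, 34187553 to 34197225), ranged from 12.3 to 33.1 CPM and did not pass any test, with a log2FC of 0.13 in FL1 and 0.39 in ctrl between the stages.

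*B2m* in FL1 had 524, 546, 567, 785 and 640 CPM in estrus and 700, 838, 735, 812 and 841 CPM in diestrus. In ctrl it had 545, 611, 560, 562 and 583 CPM in estrus and 673, 866, 849, 484 and 464 CPM in diestrus. In FL1 only estrus replicate 4 reached the diestrus range. Its log2FC was -0.36 (SE 0.11, adjusted p = 0.0296, edgeR) in FL1 and -0.22 (SE 0.17, adjusted p = 0.598) in ctrl. The call in FL1 was lost without estrus replicate 1, 2 or 3 or diestrus replicate 2, 4 or 5 (adjusted p 0.0563 to 0.0812). *B2m* was among the reference genes that the study combined for its qPCR, which compared the lines within each stage. Between the lines *B2m* did not pass the test in either stage, as given above.

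Whether the stages acted differently on the lines was asked by the interaction of line and stage. None of the 24 members tested passed (edgeR, DESeq2 and limma-voom each called 0), where 0.0565% of all 14154 genes did in edgeR, and 2 members, *Psmb9* and *Tap2*, had an unadjusted p under 0.05. Their interaction log2FC were 0.65 (SE 0.29, adjusted p = 0.377, edgeR) and 1.20 (SE 0.53, adjusted p = 0.380). A change called in FL1 and not in ctrl was therefore not shown to differ between the lines.

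**Figure D5:**
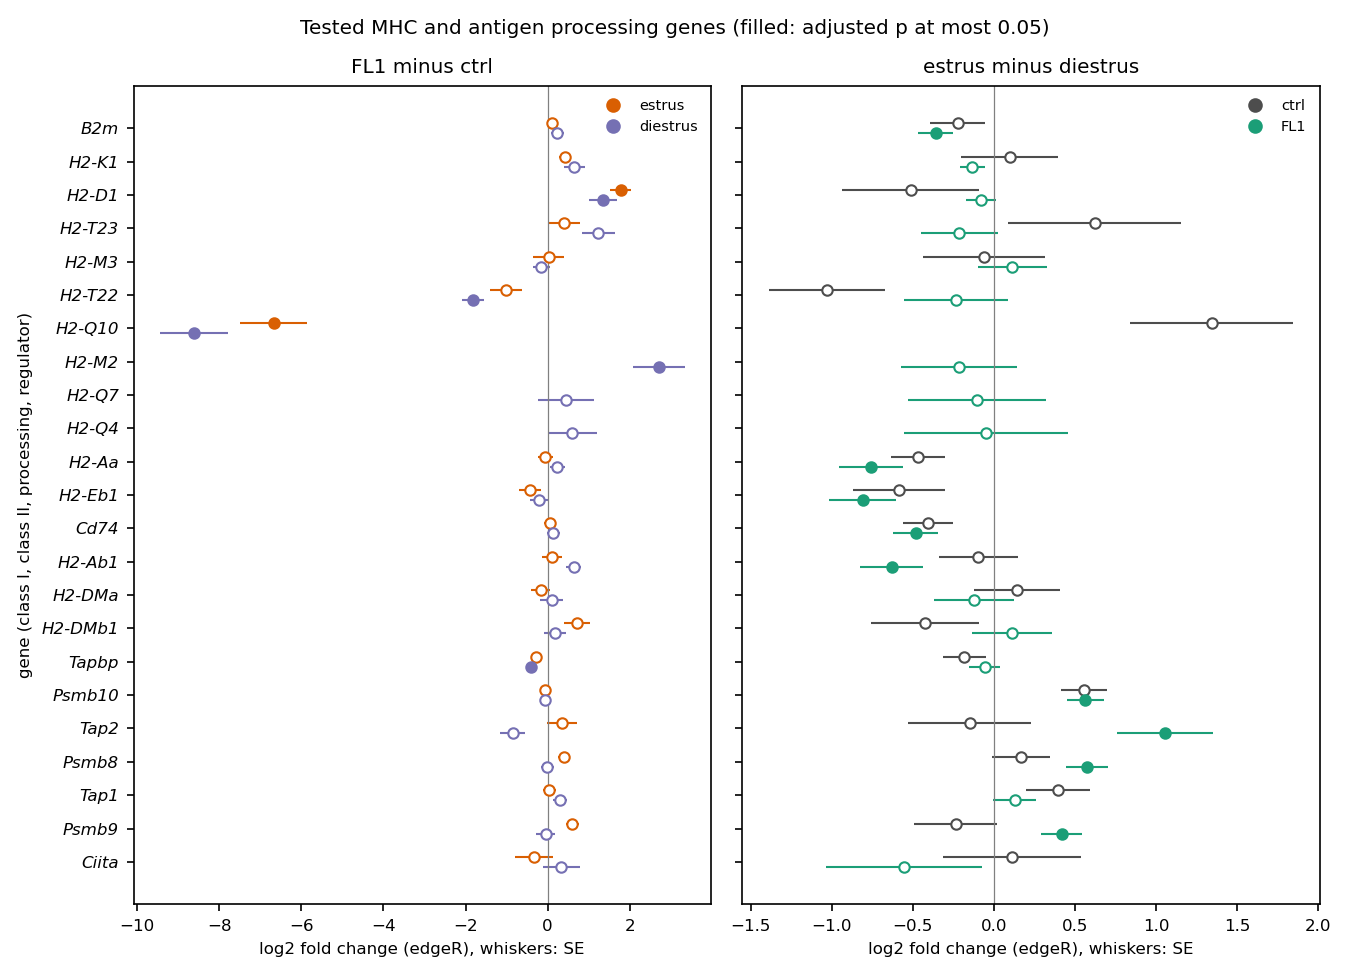
Log2FC with SE from edgeR for the members tested in a comparison of 2 groups, between the lines on the left and between the stages on the right, with filled points for an adjusted p of at most 0.05. The called line differences are those of *H2-D1*, *H2-Q10*, *H2-T22*, *H2-M2* and *Tapbp*, with *H2-Q10* in diestrus drawn at its fitted value of -8.61 although all its FL1 libraries are at 0, and the stage differences called in FL1 are lower in estrus for class II genes and *B2m* and higher for processing genes.

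The regulators were low. *Ciita*, the master regulator of class II genes, had 0.300 to 3.29 CPM over all libraries and did not pass any test. *Nlrc5*, its class I counterpart, had 0 to 2.26 CPM and was tested for the interaction only. Of 15 transcription factors that act on MHC promoters, such as *Creb1*, 14 were tested and 0 passed in any of the 4 comparisons (edgeR). Of 16 tested genes of the interferon gamma pathway, only *Gbp2*, a guanylate binding protein, passed in any comparison. The shares of all genes called were 2.33% and 4.11% between the lines in estrus and diestrus. Between the stages they were 15.9% in FL1 and 2.85% in ctrl. *Gbp2* was higher in FL1 in estrus (132 against 75.7 CPM, log2FC 0.80, SE 0.12, adjusted p = 0.00174, edgeR) and higher in estrus than in diestrus in FL1 (log2FC 1.22, SE 0.11) and in ctrl (log2FC 0.78, SE 0.19).

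Among 9 genes that cut or reduce proteins for class II loading, cathepsin S (*Ctss*), which trims the invariant chain, was stronger expressed in FL1 in both stages. It had 132 ± 52.8 CPM in FL1 and 62.2 ± 9.65 CPM in ctrl in estrus (SD, n = 5), with a log2FC of 1.08 (SE 0.22, adjusted p = 0.0219, edgeR). In diestrus the log2FC was 1.41 (SE 0.23, adjusted p = 0.00311). Cathepsin D (*Ctsd*) was higher in FL1 in diestrus, with a log2FC of 0.50 (SE 0.13), and *Ctsz* and *Lgmn* were lower, with log2FC of -0.37 (SE 0.08) and -0.77 (SE 0.20). *Ctsz* and *Ifi30*, a thiol reductase of the endosome, rose in estrus in FL1 by log2FC of 0.45 (SE 0.08) and 0.64 (SE 0.09), while the class II chain genes fell. In ctrl only *Ctsl* was called between the stages, with a log2FC of -0.66 (SE 0.16). There *Lgmn* had a log2FC of -0.87 (SE 0.24, adjusted p = 0.0708, edgeR) and *Ifi30* of 0.48 (SE 0.13, adjusted p = 0.0720) without passing. Of all genes tested, 2.33% were called between the lines in estrus and 4.11% in diestrus. Between the stages the shares were 15.9% in FL1 and 2.85% in ctrl.

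Of 8 chaperones and loading factors of class I, 0 passed between the lines. In estrus against diestrus in FL1, 2 passed, where 15.9% of all genes tested did. These were *Ganab* and *Tapbpl*, both higher in estrus (log2FC 0.29, SE 0.09, and 0.62, SE 0.20). *Calr* and *Hspa5*, the most abundant of the 8, had log2FC of 0.09 and 0.16 there and did not pass. Of 6 proteasome partners, such as *Psme1* and *Psmb6*, 0 passed in any of the 4 comparisons (edgeR), with log2FC of -0.18 (SE 0.08) and 0.20 (SE 0.09) between the stages in FL1. Of 7 class I-like genes outside the MHC, *Procr* was lower in FL1 in estrus (20.1 against 42.0 CPM, log2FC -1.07, SE 0.20, adjusted p = 0.0114, edgeR). In that comparison 2.33% of all genes tested were called. The neonatal Fc receptor gene *Fcgrt* and *Mr1*, which presents vitamin B metabolites, rose in estrus in FL1 by log2FC of 0.59 (SE 0.11) and 0.50 (SE 0.12).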

How the data were processed

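Ovarian RNA of 20 mice, 5 per line and stage, was sequenced with the QuantSeq 3' kit. After trimming, the authors used STAR for alignment to GRCm38 with an Ensembl annotation, and they deposited raw counts of unique reads per gene, 1 table per library. The counting tool and its strand setting are not given in the sources used here, and the labels' processing notes also name Cuffdiff. Several members, such as *H2-T22*, *Tap2* and *Tapbp*, overlap a gene on the opposite strand. Source names that read FL1 for all libraries were not used. No pair of libraries of a group agreed within counting noise (lowest chi-square of 6.32 per gene over 40 pairs).

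Symbols and positions came from GENCODE M21. The main test was edgeR 4.0.16 (R 4.3.3, glmQLFit and glmQLFTest) with TMM factors, filterByExpr with a minimum count of 10 and Benjamini-Hochberg adjustment over all genes tested, with the threshold at 0.05. It was tested on simulated data. FL1 was compared with ctrl in each stage, estrus with diestrus in each line, and the interaction over all 20 libraries. The SE is the size of the log2FC over the root of F. Alternatives were RLE factors, DESeq2 1.42.0, limma-voom (limma 3.58.1), other filters, 1 fit of all libraries and a replicate block. Others were each library left out, and class I genes linked by 3′ end matches added up. Same-numbered libraries are different mice, and p-values measure the spread between mice. Promoters and their coordinates came from RefSeq.

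The genes and lists were chosen with earlier results of these data known. Named with every value are members called in any comparison and, chosen after their values were seen, *H2-K1*. With ranges are named the 3 other members of highest mean CPM in each class, and from other lists called genes and the 2 of highest mean CPM, some of them as counts only. A gene that this rule would name from the other lists is not reported here.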

Additional observations from a re-analysis of the deposited data

Results flagged for a closer look

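Single mice stood apart from the other 4 of their group by Dixon's test in 6 of the 95 groups of values checked, where chance gives about 5%. In ctrl in estrus, replicate 5 had 366 CPM of *H2-K1* with the others at 207 to 228, and 47.3 CPM of *H2-Q10* with the others at 7.77 to 14.3. In ctrl in diestrus, replicate 1 had 13.2 CPM of *H2-Q10* with the others at 4.28 to 6.61. In FL1 in estrus, replicate 5 had 60.4 CPM of *H2-Ab1* with the others at 31.8 to 38.8. *Ciita* was lowest in ctrl diestrus replicate 3 at 0.300 CPM, with the others at 1.64 to 1.89, and highest in FL1 diestrus replicate 1 at 3.29 CPM, with the others at 1.26 to 1.70. Both *Ciita* values rest on few reads.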

How the results depend on the processing

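The replicate numbers do not pair the mice, as the correlation of the deviations of same-numbered libraries was -0.0953 to 0.126 over 20 pairs, and the replicate block is given as an alternative only. FL1 against ctrl in estrus called 2 of the MHC and processing genes, and 4 in DESeq2, 1 with at least 10 counts in every library, 1 with class I genes added up and 2 with the block. In diestrus it called 5, and 3 with at least 10 counts in every library, 2 with class I genes added up, 9 without a filter and 8 with the block. Estrus against diestrus in ctrl called 0, and 1 in DESeq2, without a filter and in 1 fit of all 20 libraries. In FL1 it called 9, and 4 in 1 fit of all 20 libraries and 7 with the block, which lost *H2-Ab1* and *Psmb9*. Leaving out 1 library gave 2 to 4, 2 to 5, 0 to 1 and 5 to 8 calls in these 4 comparisons, in that order, and 0 for the interaction.

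Over all genes, FL1 against ctrl in estrus called 311, and 531 in 1 fit of all libraries, 671 in DESeq2 and 477 without a filter. In diestrus it called 545, and 894 in DESeq2 and 846 without a filter. Estrus against diestrus in ctrl called 380, and 909 in 1 fit of all libraries, 768 in DESeq2 and 655 in limma-voom. The interaction called 8, and 152 in DESeq2, 31 in limma-voom and 17 without a filter. Leaving out 1 library gave 175 to 418 calls in estrus, 349 to 594 in diestrus, 176 to 516 in ctrl, 1582 to 2316 in FL1 and 0 to 15 for the interaction.

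*H2-D1* in estrus, *Psmb8*, *Psmb10* and *H2-Aa* in FL1 were called in every alternative run. *H2-Q10* in both stages and *H2-T22* in diestrus were called in all but the sum of class I genes, which is mostly *H2-K1* and *H2-D1* and turned their direction, to 0.80 in estrus (also for *H2-T22* there) and 0.86 in diestrus. *H2-Q10* could not be tested with at least 10 counts in every library. In 1 fit of all 20 libraries *Tapbp* in diestrus and *B2m*, *H2-Ab1*, *H2-Eb1*, *Psmb9* and *Tap2* in FL1 were not called (adjusted p 0.0615 to 0.198). The cause was not tested. Over the 8 alternatives, *B2m*, *H2-Ab1* and *Tap2* were called in 6 and *Psmb9* in 5 for estrus against diestrus in FL1. *H2-Ab1* between the lines in diestrus was not called, but was with the block (adjusted p = 0.0293), DESeq2 and no filter. Depth limits genes near 3 counts, such as *H2-M2* in ctrl.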

Other observations

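*H2-Ea-ps*, the I-E alpha chain gene that the annotation lists as a polymorphic pseudogene, lies outside the rule and was looked at after its values were seen. I-E molecules need this chain beside that of *H2-Eb1*. Reads were counted in 7 of the 20 libraries, at up to 4.00 CPM in ctrl diestrus replicate 5, 2.30 CPM in ctrl diestrus replicate 4 and 1.43 CPM in ctrl estrus replicate 3. In FL1 no library was above 0.321 CPM. It was not tested in any comparison, because its counts did not pass the filter.

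The same ctrl mice did not stand out alike in all genes. The highest *H2-Q10* library of ctrl in estrus, replicate 5 at 47.3 CPM, was also the highest for *H2-K1* at 366 CPM and the lowest for *Tap2* at 8.09 CPM and *Psmb9* at 12.5 CPM. In ctrl in diestrus, replicates 4 and 5 were lowest for *H2-D1* at 60.7 and 39.8 CPM, for *H2-K1* at 96.0 and 150 CPM and for *B2m* at 484 and 464 CPM, while replicate 5 was highest for *H2-Eb1* at 133 CPM and *Cd74* at 67.8 CPM. These mice were picked for their values, and nothing was tested on them.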
